A study of Amaranthus powellii with 13 samples.

Results

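Gene models that were near silent in untreated green pigweed leaves and expressed in every leaf exposed to MCPA are described here. A gene model was taken when it stayed below 1 CPM (read counts scaled to a common library size) in each of 6 untreated plants and reached at least 5 CPM in each of 6 treated plants. These limits were met by 11 gene models, or 0.0462% of the 23820 in the reference-based table, of which 20245 had any count. The members were therefore selected on their measured rise with MCPA, and that rise is given as a description with no test.

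MCPA is a synthetic auxin herbicide. Auxins are sensed by the TIR1/AFB receptors, which mark Aux/IAA repressor proteins for degradation and so release auxin response factors to switch on transcription. Members of the Aux/IAA, GH3 and SAUR families are well known in plants for a fast rise of their transcripts after auxin, and ethylene and abscisic acid production follow in sensitive dicots. The tables used here pair identifiers with no gene name, so no role is given to any of the 11 gene models, and leaf marker genes could not be looked up.

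The leaves came from *Amaranthus powellii* of population 501, which is resistant to MCPA, and of population 511, which is susceptible. Each population gave 3 treated plants (RT for 501, ST for 511) and 3 untreated plants (RU and SU). The treated plants received MCPA at a dose of 1225 g a.e./ha, and the fourth leaf was taken 6 h afterwards. The 501 seed lot descended from open-pollinated survivors of MCPA, and the plants sequenced were picked as representative after their survival had been scored. Each phenotype was represented by 1 population, so resistance and population cannot be told apart. In leaf RNA, fewer cells of a type and less RNA per cell cannot be told apart either.

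Library totals ran from 22629698 to 29999982 counts, and 1 CPM was worth 21.8 to 32.1 counts. ST S13 and SU S116 stood apart from the rest. Their best correlation with any other library was 0.933 and 0.945, against at least 0.973 for the other libraries. Without both libraries, 18 gene models met the limits. The 11 were among them, which leaving out plants makes near certain because fewer conditions remain. SU S14 weighed as much on the count, since 18 gene models also met the limits without it. Unless stated otherwise, the edgeR and DESeq2 p-values below rest on a spread between plants estimated over all 12 libraries, with 3 plants per group. Both methods also share information on that spread across gene models.

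Among their 66 untreated values the highest was 24 counts (0.872 CPM), and 4 values were 0 counts, a reading that still allows up to 3 counts. None of the 11 was at 0 in all 6 untreated plants, so near silent is meant here rather than absent. In treated plants the members ran from 6.27 to 771 CPM. Summed over the 11, untreated plants held 2.77 to 4.56 CPM and treated plants 455 to 1141 CPM. CPM is not scaled to transcript length, so a higher value of one gene model than of another is not a higher molar level.

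**Figure D1:**
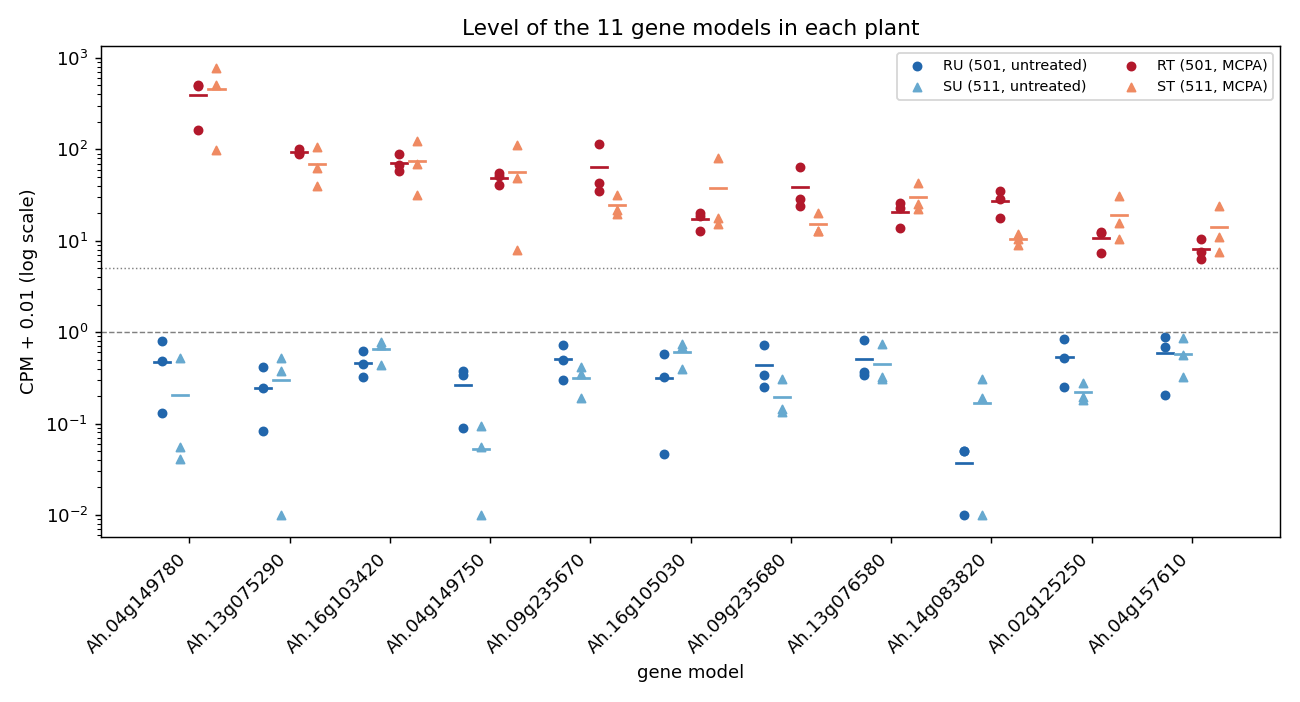
CPM + 0.01 on a log scale for the 11 gene models in each of the 12 plants, with a point per plant and a bar at the group mean. The dashed and dotted lines are the limits of 1 and 5 CPM (plus 0.01), and no point lies between them because the rule demands it.

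Ah.04g149780 took the most counts of the 11 on the mean of the treated plants, though not in ST S13. It was at 495, 163 and 506 CPM in RT S11, S14 and S110 and at 98.7, 509.7 and 771 CPM in ST S13, S16 and S112. Untreated, it was at 0.121, 0.799 and 0.475 CPM in RU S13, S18 and S118 and at 0.510, 0.0452 and 0.0312 CPM in SU S12, S14 and S116. RT S14 and ST S13 were low and the other 4 treated plants lay at 495 CPM or above, so the populations overlapped. The group means were 388 ± 195 CPM in RT and 460 ± 339 CPM in ST (SD, n = 3). The rise was 835-fold in 501 and 2354-fold in 511 on group means, where the 511 base rests on 14 counts in all.

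Ah.04g149750 carries an identifier 3 steps before Ah.04g149780. It was at 40.3, 55.5 and 51.3 CPM in the RT plants and at 7.90, 49.1 and 111 CPM in the ST plants, in the plant order used above. In untreated plants it was at 0.363, 0.327 and 0.0792 CPM (RU) and at 0.0849, 0.0452 and 0 CPM (SU). The 3 RT plants lay close together, while the lowest and the highest treated plant were both of 511, a 14.1-fold range that was the widest of the 11. In 511 the rise rests on 4667 counts against 3, a ratio of 1414 with a 95% counting interval of 484 to 6859. In 501 it was 191-fold.

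Ah.13g075290 had the narrowest range of the 11 across treated plants, at 2.69-fold. It was at 88.7, 101 and 91.1 CPM in RT and at 39.6, 107 and 63.0 CPM in ST. Untreated values were 0.404, 0.0727 and 0.238 CPM in RU and 0.510, 0.362 and 0 CPM in SU. The RT plants lay close together (93.5 ± 6.38 CPM), and the ST plants spread on both sides of them (69.8 ± 34.0 CPM; SD, n = 3). The fold on group means was 393 in 501 and 240 in 511.

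Ah.16g103420 was at 66.7, 87.9 and 57.3 CPM in RT and at 124, 68.6 and 31.9 CPM in ST. The untreated values were 0.605, 0.436 and 0.317 CPM (RU) and 0.425, 0.769 and 0.717 CPM (SU). ST S13 was the highest treated plant and ST S112 the lowest. Ah.16g105030 was at 12.9, 18.6 and 20.01 CPM in RT and at 80.2, 17.96 and 15.4 CPM in ST. In untreated plants it was at 0.565, 0.0363 and 0.317 CPM (RU) and at 0.382, 0.724 and 0.686 CPM (SU). ST S13 alone stood far above the other 5 treated plants. Without ST S13 the ST mean of Ah.16g105030 was 16.7 CPM against 37.8 CPM with it, and the RT mean was 17.2 CPM.

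Ah.09g235670 and Ah.09g235680 have consecutive identifiers. The first was at 115, 42.9 and 35.2 CPM in RT and at 19.8, 21.8 and 31.9 CPM in ST. The second was at 63.4, 28.5 and 23.9 CPM in RT and at 12.8, 12.9 and 19.9 CPM in ST. For both, all RT plants were above all ST plants, and RT S11 was the highest. Untreated values of Ah.09g235670 were 0.484, 0.291 and 0.713 CPM in RU and 0.340, 0.181 and 0.405 CPM in SU. Those of Ah.09g235680 were 0.242, 0.327 and 0.713 CPM in RU and 0.297, 0.136 and 0.1247 CPM in SU. Both gene models overlapped between the untreated groups. In CPM the first was 1.48 to 1.81 times the second in the 6 treated plants. The ratio itself depends on transcript length, while its 1.23-fold spread over the plants does not. Reads may have been shared or split between the 2 gene models, which was not tested, so they are not taken as independent of each other.

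Ah.14g083820 was at 17.6, 35.2 and 28.7 CPM in RT and at 10.4, 9.03 and 11.7 CPM in ST. Untreated, it was at 0.0404, 0 and 0.0396 CPM in RU (2 counts in all) and at 0.297, 0.181 and 0 CPM in SU (11 counts in all). The treated groups did not overlap, with 27.1 ± 8.92 CPM in RT and 10.4 ± 1.34 CPM in ST (SD, n = 3). In 501 the rise rests on 2055 counts against 2, a ratio of 1042 with a 95% counting interval of 288 to 8611. In 511 it was 65.1-fold.

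Ah.13g076580 was at 13.7, 25.8 and 23.0 CPM in RT and at 22.1, 25.5 and 43.4 CPM in ST. Without MCPA it was at 0.807, 0.327 and 0.357 CPM (RU) and at 0.297, 0.724 and 0.312 CPM (SU). The treated groups overlapped, with ST S112 highest and RT S11 lowest. Ah.02g125250 was at 12.2, 7.28 and 12.3 CPM in RT and at 15.6, 10.4 and 30.8 CPM in ST. In untreated plants it was at 0.242, 0.509 and 0.832 CPM (RU) and at 0.170, 0.271 and 0.187 CPM (SU). It was again highest in ST S112, and the groups overlapped. Its fold on group means was 20.1 in 501 and 90.5 in 511. Ah.04g157610 was at 7.59, 6.27 and 10.6 CPM in RT and at 24.2, 7.62 and 11.03 CPM in ST. Its untreated values were 0.686, 0.872 and 0.198 CPM (RU) and 0.552, 0.859 and 0.312 CPM (SU). It had the smallest rise of the 11, at 13.9-fold in 501 and 24.8-fold in 511, and lay nearest to both limits.

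The treated plants did not rank alike across the members. ST S13 was the lowest treated plant for 5 members and the highest for 3, and ST S112 was the highest for 4 and the lowest for 1. RT S110 was neither for any. The highest treated plant was of 511 for 8 members and the lowest was of 511 for 7, with both in 511 for 4. The summed level of the 11 was lowest in ST S13 (455 CPM) and highest in ST S112 (1141 CPM).

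**Figure D2:**
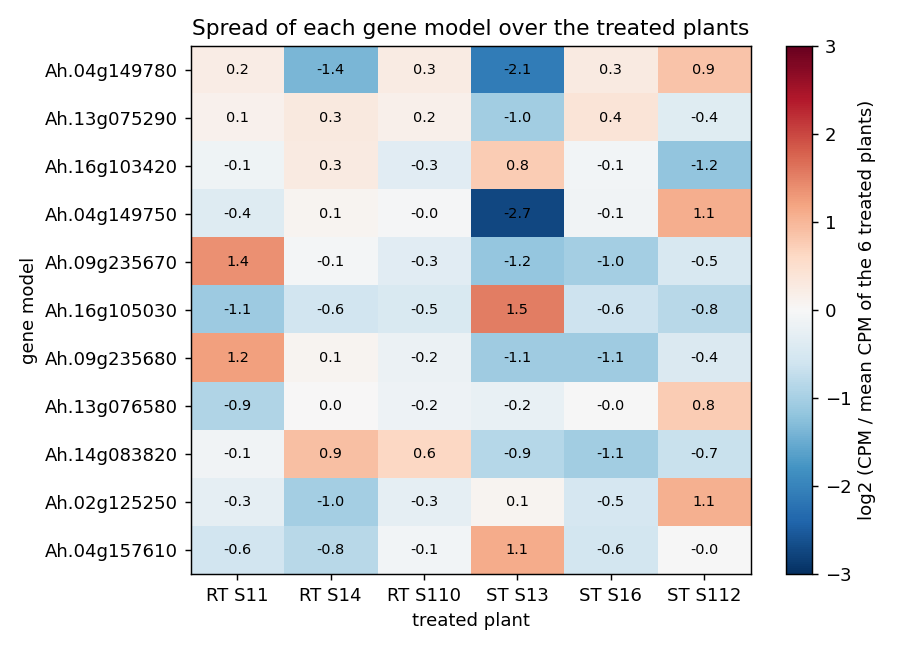
Log2 of the CPM in each of the 6 treated plants divided by the mean of those 6 plants, for each of the 11 gene models (red above, blue below the mean). ST S13 holds the lowest value of 5 gene models and the highest of 3.

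Whether the populations differed in the induced level was asked by setting RT against ST. The limits did not compare these groups, but they did use the treated values, with at least 5 CPM required in every RT and every ST plant. A gene model that stayed below 5 CPM in the treated plants of either population could therefore not be a member. The test covers only differences above that floor, and the gene models behind the shares of all were not held to it. All 11 passed the filter on low counts, each through its treated libraries, and were tested among 16304 gene models. At an adjusted p under 0.05 (edgeR quasi-likelihood test with Benjamini-Hochberg adjustment over all gene models), 0 of 11 differed, against 0.251% of all gene models. At an unadjusted p under 0.05, 3 of 11 did, against 12.2% of all, and DESeq2 called 1 of 11, against 2.61%. All 3 RT plants were above all 3 ST plants for the same 3 gene models, against 7.49% of those tested, and the reverse held for 0 of 11, against 7.84%.

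The 3 gene models were Ah.09g235670, Ah.09g235680 and Ah.14g083820, of which the first and the second may share reads. Ah.09g235670 was higher in RT by 1.39 on the log2 scale (SE 0.43, 95% interval 0.43 to 2.34). Its adjusted p was 0.287 by edgeR and 0.0843 by DESeq2. With only the 6 libraries compared in the edgeR fit, the adjusted p was 0.674. The difference leaned on RT S11, without which it was 0.67 on the log2 scale. Ah.09g235680 was higher by 1.34 (SE 0.42, adjusted p = 0.292 by edgeR and 0.0849 by DESeq2), and by 0.78 without RT S11. Ah.14g083820 was higher by 1.38 (SE 0.49, 95% interval 0.30 to 2.47), with an adjusted p of 0.337 by edgeR and 0.0176 by DESeq2. Over all 18 alternatives its adjusted p ran from 0.0176 to 0.676. An exact two-sided permutation test of 3 plants against 3 gave p = 0.1 for each of the 3, the smallest it can give. Any gene model whose groups do not overlap must get this value, so it adds nothing to the lack of overlap.

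The other 8 gene models had intervals that spanned 0. Ah.16g105030 differed by -1.15 on the log2 scale (95% interval -2.58 to 0.28), and by 0.03 without ST S13. Ah.04g149780 differed by -0.24 with an interval from -1.90 to 1.41, so no difference was detected for it with 3 plants a group. Differences within that interval in either direction were not resolved. Without ST S13, both remaining ST plants of this gene model exceeded every RT plant. Ah.02g125250 differed by -0.84, Ah.04g157610 by -0.82 (-0.20 without ST S13, with an ST mean of 9.32 CPM in place of 14.3 CPM), Ah.13g076580 by -0.54, Ah.04g149750 by -0.20, Ah.16g103420 by -0.09 and Ah.13g075290 by 0.42. The median over the 11 was -0.20, with 7 negative, and the median over all gene models tested was -0.04. Regardless of sign, the median difference was 0.82 for the 11 and 0.26 for all. A difference taken regardless of sign also grows with the spread between plants. The SEs of the 11 ran from 0.39 to 0.75, so no larger population difference is read from this median.

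**Figure D3:**
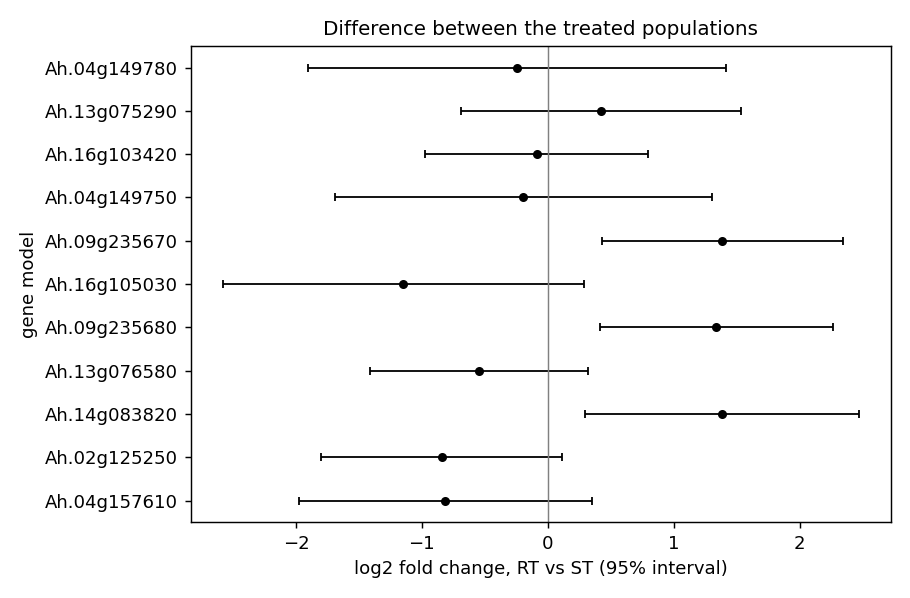
Log2 fold change (point) from the edgeR fit of RT vs ST for the 11 gene models, with an approximate 95% interval (bar) derived from its F statistic. The interval lies above 0 for Ah.09g235670, Ah.09g235680 and Ah.14g083820 and spans 0 for the other 8, with no adjusted p under 0.05 in this fit.

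The rule itself held each member under 1 CPM in untreated leaves, at 24 counts or fewer, so the comparison of RU with SU had little room to find a difference and its counts are given as a description. In it, 0 of 11 differed between RU and SU at an adjusted p under 0.05 (edgeR), against 0.245% of all gene models, and DESeq2 also called 0 of 11, against 2.46%. At an unadjusted p under 0.05 there was 1 of 11, against 9.96%. It was Ah.02g125250, with 41 counts in RU and 16 in SU. No member had all RU plants above all SU plants, against 11.6% of gene models, and none the reverse, against 11.6%. Nothing is read from these counts about the members.

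The interaction sets the rise in 501 against the rise in 511. Its untreated side consists of the low values that selected the members, so it too is given as a description. At an adjusted p under 0.05 (edgeR) it was called for 0 of 11, against 0.0123% of all gene models, and by DESeq2 for 0 of 11, against 1.11%. At an unadjusted p under 0.05 it was 2 of 11, against 6.13%. These were Ah.14g083820, at 3.70 on the log2 scale (larger rise in 501), a value that rests on the 2 counts in RU, and Ah.02g125250, at -2.17 (smaller rise in 501). No difference in the rise between the populations is drawn from them.

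The 11 were set beside 87 gene models that were already at 1 CPM or more in every untreated plant and whose lowest treated plant was at least 3 times the highest untreated plant. Of these 87, 0 were called between RT and ST by edgeR (0.251% of all gene models) and 3 by DESeq2 (3.45%, against 2.61% of all). An unadjusted p under 0.05 (edgeR) was found for 10 (11.5%, against 12.2%), and the median difference regardless of sign was 0.21. Between RU and SU, edgeR called 8 of the 87 (9.2%, against 0.245% of all) and DESeq2 20 (23%, against 2.46%). In the interaction they called 2 (2.3%, against 0.0123%) and 12 (13.8%, against 1.11%). The 11 were held under 1 CPM without MCPA, so they are not compared with the 87 on these calls. The median rise on the log2 scale was 7.01 in 501 and 6.35 in 511 for the 11, and 3.45 and 3.61 for the 87, as both rules fix in part. No gene model met the limits in the opposite direction, from 5 CPM or more in every untreated plant to under 1 CPM in every treated plant. None was on in all treated plants of one population only, with all treated plants of the other under 1 CPM.

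The limits cut through a continuous range. Just inside were Ah.04g157610, with a highest untreated plant of 0.872 CPM and a lowest treated plant of 6.27 CPM, and Ah.02g125250, with 0.832 and 7.28 CPM. Just outside the untreated limit were Ah.02g125320, at 1.04 CPM in SU S14, and Ah.07g197980, at 1.05 CPM in RU S13. Just outside the treated limit were Ah.14g083810, at 4.68 CPM in ST S16, and Ah.01g021040, at 4.67 CPM in RT S14. In all, 4683 gene models stayed under 1 CPM in every untreated plant, and 124 of them reached 5 CPM in at least 1 treated plant.

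A further 23 gene models met the limits in 11 of 12 plants. Of these, 15 missed in an untreated plant and 8 in a treated plant, and 18 missed in a plant of 511, with SU S14 alone accounting for 7. The 2 highest of the 23, named here after their values were seen, missed only through SU S12. Ah.02g125690 was at 2020 (RT S11), 1261 and 1847 CPM in RT and at 2008, 2034 and 2240 CPM in ST. Without MCPA it was at 0.202, 0.654 and 0.396 CPM (RU) and at 2.04, 0.271 and 0.0935 CPM (SU). Ah.02g123410 was at 569, 548 and 521 CPM in RT and at 363, 779 and 1015 CPM in ST. It was at 1.06 CPM in SU S12 and at most 0.242 CPM in the other untreated plants.

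**Figure D4:**
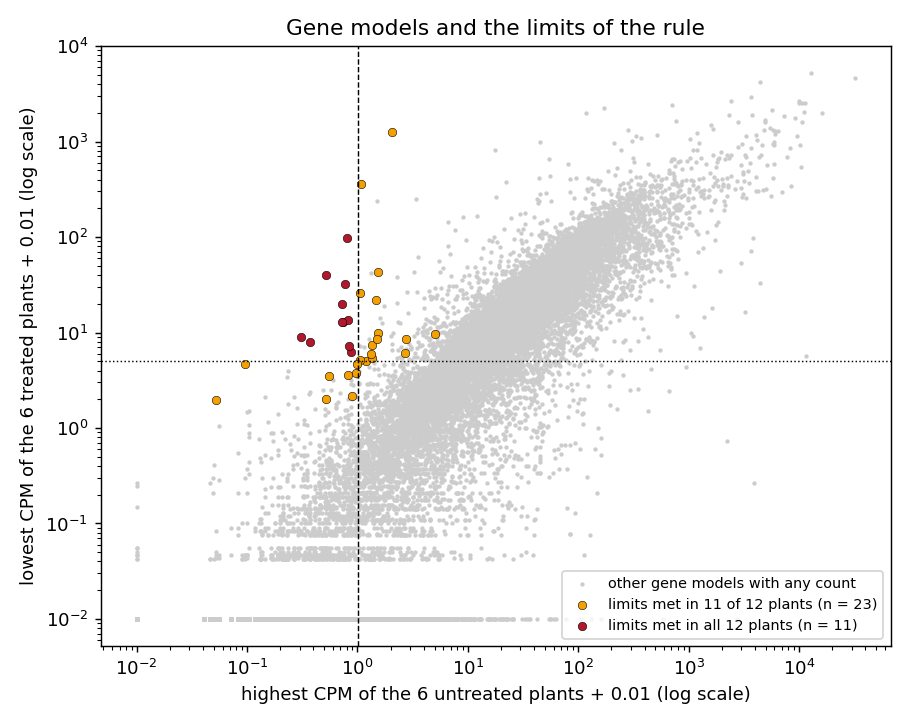
Highest CPM of the 6 untreated plants against lowest CPM of the 6 treated plants, each + 0.01 on a log scale, for 20245 gene models. The 11 that met both limits (red) sit left of the dashed line and above the dotted line, and the 23 that missed in 1 plant (orange) sit around them.

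Several members had neighbours that moved the same way. Identifiers in the file step by 10 or more, and the next identifier is called a neighbour here, with no position on the genome used. Of 18 immediate neighbours that had counts and were not members, 6 (33.3%) had all treated plants above all untreated plants, beside 5 of the members. This asks for order only, not for the size of the rise. The 6 include Ah.16g103430, with a lowest treated value of 22.2 CPM and a highest untreated value of 21.7 CPM. They also include Ah.04g149760, with a lowest treated value of 0.197 CPM. The share over all gene models with any count was 9.8%. Within 3 steps it was 9 of 48 (18.8%), beside 8 of the members. The step widths were chosen after values had been seen.

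Around Ah.04g149750 and Ah.04g149780, neighbours moved to unequal extents. Ah.04g149730 went from 29.3 to 55.8 CPM untreated to 434 to 1680 CPM treated, so it was expressed without MCPA. Ah.04g149740 and Ah.04g149760 stayed low when treated, at 0.907 to 3.95 CPM and 0.197 to 4.07 CPM, and Ah.04g149770, next to Ah.04g149780, had almost no counts. Ah.14g083810, just outside the treated limit, lies next to Ah.14g083820. The ratio of Ah.14g083820 to Ah.14g083810 was 1.56 to 2.24 over the 6 treated plants. Ah.04g157600 was 5.68 to 6.82 times Ah.04g157610 over the same plants and went from 1.61 to 5.65 CPM untreated to 42.8 to 144 CPM treated. These pairs kept near-constant ratios from plant to plant, and whether reads are shared within them was not tested.

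Other neighbours did not follow their member from plant to plant. Ah.13g076570 was 0.400 to 3.13 times Ah.13g076580 over the treated plants, with the highest ratio in ST S13. Ah.09g235660, next to Ah.09g235670, ran from 5.08 to 981 CPM in treated plants and from 3.43 to 115.6 CPM in untreated plants, so its treated and untreated plants overlapped. Its lowest treated plant was ST S112, where Ah.09g235670 was at 31.9 CPM. The ratio of Ah.04g149780 to Ah.04g149750 also varied, from 2.94 in RT S14 to 12.5 in ST S13.

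**Figure D5:**
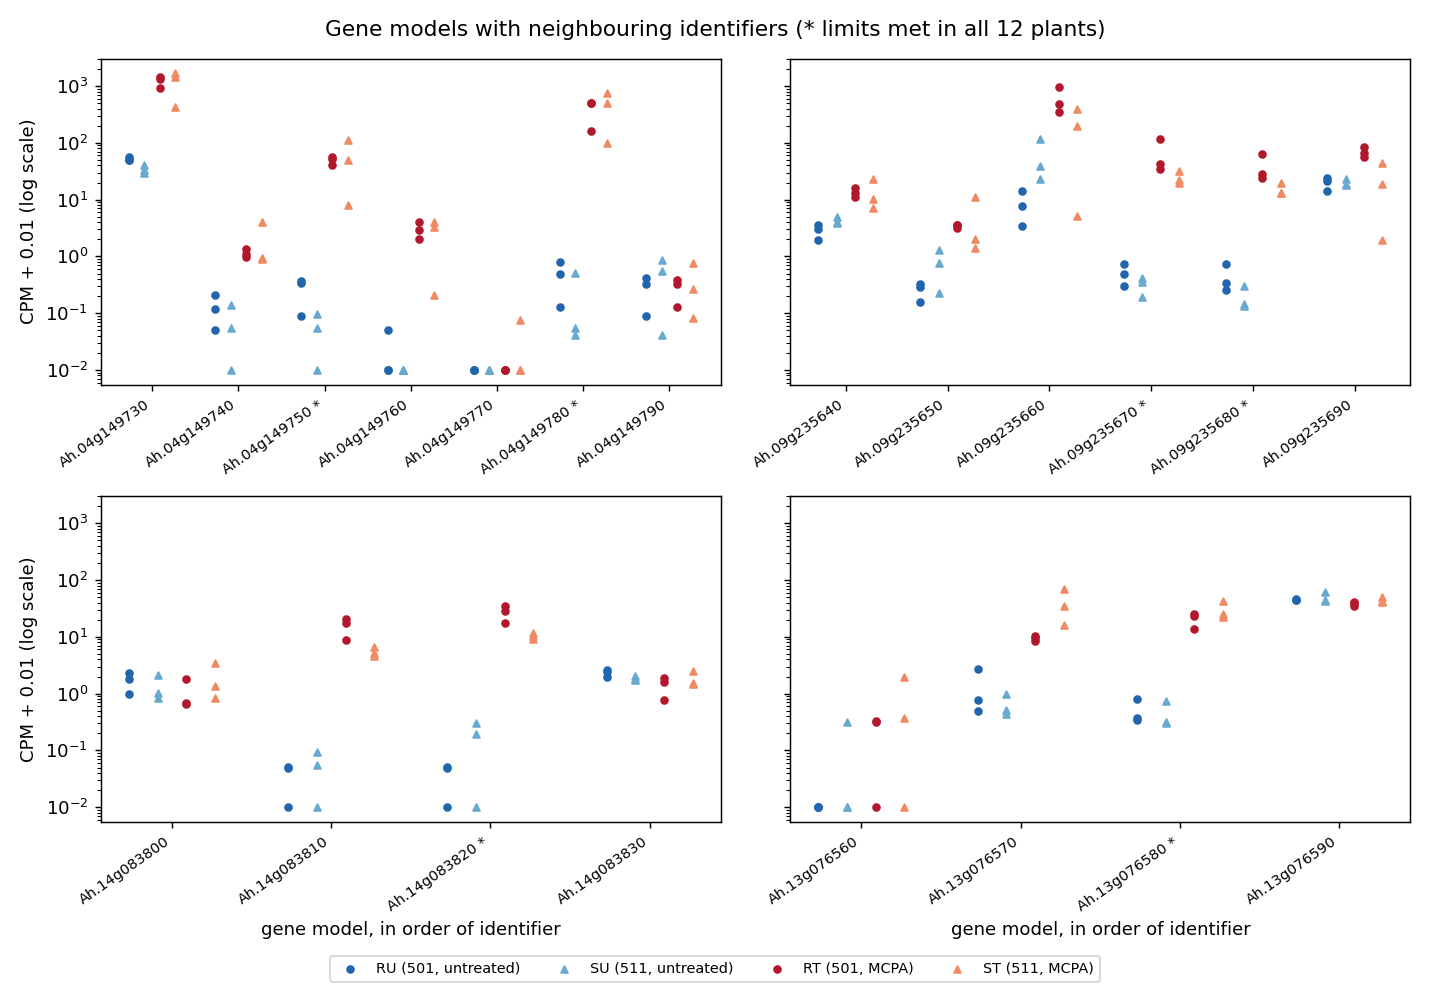
CPM + 0.01 on a log scale for gene models in order of identifier around 6 of the 11 members (marked with an asterisk), with a point per plant. Red and orange points are treated plants and blue points untreated plants, and the members stand beside neighbours that rise, such as Ah.14g083810, and neighbours that do not, such as Ah.14g083830.

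The same reads had also been counted on transcripts assembled de novo from long reads of this species. The long reads came from treated and untreated leaves of population 511 only. The limits were met there by 39 of 37218 transcripts (0.105%), with mean treated levels of 12.7 to 495 CPM and a median of 64.3 CPM. None was at 0 counts in all untreated plants. All ST plants were above all RT plants for 8 of the 39, against 8.59% of the 36678 transcripts that passed the filter on low counts. The reverse held for 0, against 7.46%, and 31 overlapped. Among the 11 gene models, 3 were higher in RT and 0 higher in ST. Whether the 511 origin of the transcripts bears on this was not tested. The transcripts could not be matched to the 11 gene models, several may belong to 1 gene, and being the same reads they are no second measurement.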

How the data were processed

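RNA from 12 leaves was sequenced as stranded mRNA libraries. Both deposited tables hold raw read counts made by the authors. Reads were trimmed with fastp and aligned with STAR to the genome of smooth pigweed, a related species, for the reference-based table. Its counting tool and its handling of strand and of reads with several hits were not given in the sources used here. De novo transcripts were counted with Bowtie 2, SAMtools and featureCounts, and reading frames of 1 transcript were counted once here.

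CPM was computed from the counts with TMM factors in edgeR 4.0.16 (R 4.3.3) over rows with any count. Tests used the edgeR quasi-likelihood fit over 12 libraries with 4 group means, filterByExpr (minimum count 10, total 15) and Benjamini-Hochberg adjustment over 16304 gene models. DESeq2 1.42.0 was the alternative. The fit was also run on simulated data as a check of the code, and nothing about the members is drawn from that run. Named gene models were members highest when treated, most different between RT and ST, most or least variable, at the limits or in runs of identifiers, which took in all 11. The members, the limits and the comparison sets were chosen with earlier results of these data known. Intervals for ratios of few counts are exact and cover counting error only. The long-read library was not analysed here.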

Additional observations from a re-analysis of the deposited data

How the results depend on the processing

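The number of gene models found depends on the limits. It was 11 with TMM or with RLE factors, 15 with library totals alone, 2 with an untreated limit of 0.5 CPM, 32 with one of 2 CPM, 34 with a treated limit of 2 CPM and 7 with one of 10 CPM. Leaving out each plant in turn gave 11 to 18, with 18 without SU S14, and 18 were found without both ST S13 and SU S116. The 11 were kept in each of these omissions. Leaving out a plant lifts its condition, so a member could be lost only through the refitted TMM factors. Their being kept is therefore no support for them. Calls between RT and ST were 0 of 11 in all alternatives except DESeq2 (1) and an unadjusted p (3). The unadjusted p gave 1 for RU against SU and 2 for the interaction, and all other alternatives gave 0. The count of members whose treated groups did not overlap was 3, all higher in RT. With library totals it was 4, of which 1 was higher in ST (all gene models: 2.64% higher in RT, 16.1% in ST). Without ST S13 it was also 4, the added one being Ah.04g149780, higher in ST (all: 13.8% and 14.1%). The RT against ST difference (log2) changed sign for 4 members. Leaving out single plants gave -0.73 to 0.34 for Ah.04g149780, -0.72 to 0.77 for Ah.04g149750, -0.44 to 0.49 for Ah.16g103420 and -1.51 to 0.0349 for Ah.16g105030. Without both ST S13 and SU S116 it was 0.49 for Ah.16g103420 and 0.0344 for Ah.16g105030. Apart from fewer plants, the cause was not tested. No paired analysis was possible because no groups compared share 2 or more plant numbers. Depth limits the untreated side, where 1 CPM is 21.8 to 32.1 counts.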

Other observations

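The gene model looked up for ACS, an enzyme of ethylene synthesis, was not among those switched on. Whether any other gene model codes for ACS could not be looked up. The gene model used was Ah.12g051890, a match inferred from a shortened identifier that only this gene model begins with. Ah.12g051890 was at 0.596, 1.01 and 0.850 CPM in RT and at 24.9, 5.08 and 8.45 CPM in ST. In untreated plants it was at 5.97, 5.89 and 7.33 CPM (RU) and at 20.9, 15.8 and 40.7 CPM (SU). It was lower in every RT plant than in every RU plant. The treated and untreated plants of 511 overlapped through ST S13 alone, a library that stood apart, while ST S16 and ST S112 lay below every SU plant. Of 3 de novo transcripts that the study names (ACS, an F-box protein and an auxin-repressed protein), 0 met the limits.

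Identifiers of the 11 gene models carried 6 of the number prefixes of the file, with 3 under 04, 2 each under 09, 13 and 16, and 1 each under 02 and 14.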
